A study of Mus musculus with 6 samples.

Results

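The 10 genes described here carry glucose into the cell and break it down to lactate. Slc2a1 and Slc2a3 encode the glucose transporters GLUT1 and GLUT3, Hk1, Hk2, Pfkp and Aldoa encode enzymes of the upper part of glycolysis, and Pgk1, Eno1, Pkm and Ldha encode enzymes of its lower part. They were taken by symbol from a list of this pathway, and all 10 had a row among the 37991 genes of the deposited count table. RNA was sequenced from regulatory T cells (Treg), the CD4 T cells that restrain immune responses, isolated from mouse spleen by CD4 enrichment and sorting of YFP-positive cells. The labels give 3 libraries as wild type and KAP1 sufficient and 3 as KAP1 deficient. KAP1 is the protein of the Trim28 gene, a co-repressor that zinc finger proteins of the KRAB class bring to DNA.

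The strain is labelled C57BL/6 for the 3 sufficient libraries and deficient replicate 1, C57BL/7 for deficient replicate 2 and C57BL/8 for deficient replicate 3. Age, sex, the Cre or YFP construct and the number of mice per library are given in none of the sources used here. No label says that each library came from its own animal. The p-values may therefore reflect technical spread alone.

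A pair of libraries went against their label in the targeted gene. Trim28 stood at 244, 244 and 21.2 CPM (counts scaled to one common library size) in sufficient replicates 1, 2 and 3, and at 23.0, 18.6 and 231 CPM in deficient replicates 1, 2 and 3. The library labelled sufficient replicate 3 was thus low and the library labelled deficient replicate 3 was high. Each gene was therefore compared by label over 6 libraries, by Trim28 level over 6 libraries (high in sufficient 1, sufficient 2 and deficient 3, low in sufficient 3, deficient 1 and deficient 2), and by label in the 4 libraries where Trim28 and label agree. The comparisons share libraries and are not independent of each other. The Trim28-level groups rest on a measured transcript, not on a label, so the Trim28 difference between them is given as a description only, although the gene is among those fitted and called there.

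Totals ran from 9954344 to 10994745 counts per library. The 7 erythroid markers summed to at most 0.182 CPM. Several other transcripts moved with Trim28 level, and their part in the results below was not tested. The 7 Treg markers, Foxp3 among them, were abundant in every library, at 4485 to 4549 CPM in the high and 4283 to 4423 CPM in the low Trim28 libraries. Of 26 cell cycle genes, 16 fell with low Trim28 and none rose, and their summed level was 1328 to 1565 CPM in the high and 1059 to 1106 CPM in the low Trim28 libraries. Mitochondrial transcripts made up 1.61% to 2.097% of counts in the high and 1.33% to 1.41% in the low Trim28 libraries. Of the 7 B cell markers, summing to 606 to 697 CPM in the high and 544 to 581 CPM in the low Trim28 libraries, Igkc and Cd22 fell, while Ms4a1 had at most 1 count in any library. The 4 natural killer cell markers summed to 10.3 to 13.3 CPM in the high and 17.1 to 18.2 CPM in the low Trim28 libraries. Of the 3 tested, Klrb1c alone was called, and it rose, while Ncr1 was at 0 throughout. By label, Klrb1c had a log2 fold change of 0.68 but Eomes and Prf1 had -0.47 and -0.22, none of them called. The 5 dendritic cell markers summed to 1.18 to 2.57 CPM in the high and 2.61 to 4.37 CPM in the low Trim28 libraries, and Zbtb46, the 1 of them tested, was 2.38-fold higher in the low ones (adjusted p of 0.0366 by edgeR), while Itgax and Siglech were at 0. Of 11 tested genes of the immediate early and handling response, Nr4a1 and Egr1 fell by Trim28 level and none rose. The list was mixed in the 4 libraries where Trim28 and label agree. There Hspa1b, Jun and Fos were called higher and Egr1, Nr4a1, Junb and Egr2 lower in the deficient libraries. These are bulk samples, so fewer cells of a type and less RNA per cell cannot be told apart.

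Glucose enters T cells through facilitative transporters, is trapped by phosphorylation and is split into smaller sugars whose oxidation yields ATP, pyruvate and, through lactate dehydrogenase, lactate. Effector T cells raise this pathway on activation under the control of mTORC1, Myc and HIF, whereas Treg are known to draw more on oxidative metabolism and to use glycolysis for proliferation and migration. Foxp3, the transcription factor that defines Treg, is known to oppose Myc and glycolytic gene expression.

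The summed level of the 10 genes differed little between libraries. It was 1513, 1574 and 1492 CPM in sufficient replicates 1 to 3 and 1462, 1480 and 1442 CPM in deficient replicates 1 to 3. Every deficient library lay below every sufficient one, while the high and low Trim28 libraries overlapped. By Trim28 level 2 of the 10 were called higher, none was called lower and 8 did not pass the test, beside 8.23% of 12158 tested genes called, 4.61% higher and 3.61% lower.

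At most steps 1 of several genes for the same reaction made up most of the transcript. Levels between genes are compared here in reads per kilobase of merged exon length, scaled to the library total as CPM is (RPKM). Among hexokinase genes, Hk1 held 93.9% to 96.3% of the RPKM in each library and Hk2 held 2.96% to 5.66%. That share leaves out Adpgk, which phosphorylates glucose with ADP and is described below. With the length of the main coding transcript in place of all merged exons, Adpgk stood at 52.6 and Hk1 at 61.3 on average. Among aldolase genes, Aldoa held 98.4% to 99.0%. Ldha held 86.0% to 87.5% of lactate dehydrogenase and Ldhb, the heart-type subunit, nearly all of the rest. With merged exon length, phosphofructokinase was shared more evenly, with 37.9% to 43.4% for Pfkp and the remainder split between Pfkl and Pfkm. This split depends on the length used. With the length of the main coding transcript, Pfkp stood at 61.6, Pfkl at 16.9 and Pfkm at 10.6 on average. With merged exon length, enolase was the exception among the lower steps. There Eno3, best known as the muscle enolase, held 60.3% to 72.1% and Eno1 24.1% to 36.3%. With the length of the main coding transcript, Eno1 stood at 40.9 and Eno3 at 39.1 on average, so Eno3 did not lead. Most of the Eno1 sequence is shared with copies described below, so its share is uncertain.

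**Figure D1:**
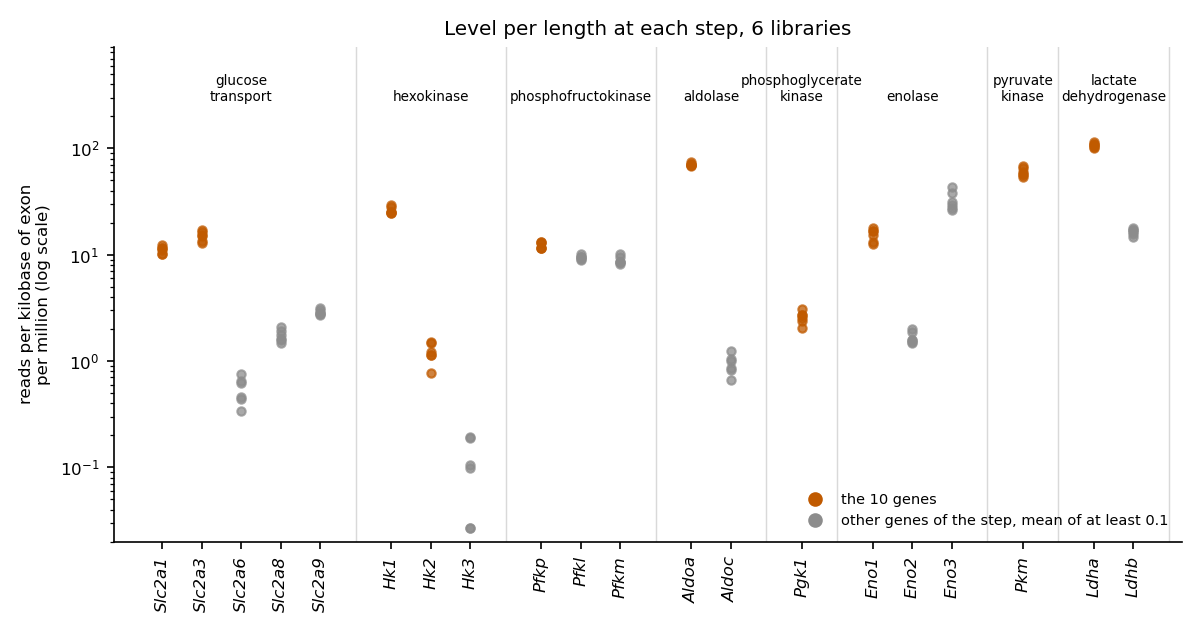
RPKM (log scale) of each gene at 8 steps from glucose transport to lactate dehydrogenase, 1 point per library, with the 10 genes in orange and the other genes of each step with a mean of at least 0.1 RPKM in grey. Hk1, Aldoa, Pkm and Ldha stand above the other genes of their step in every library, whereas Eno3 stands above Eno1. The order of Eno3 and Eno1 depends on the length used, here that of all merged exons.

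Ordered by mean RPKM over the 6 libraries, Ldha stood at 107, Aldoa at 70.5, Pkm at 60.5, Hk1 at 26.1, Eno1 at 15.4, Slc2a3 at 15.0, Pfkp at 12.3, Slc2a1 at 11.2, Pgk1 at 2.58 and Hk2 at 1.203 RPKM. Ldha, Hk1, Pgk1 and Hk2 did not overlap with any neighbour in that order, but the places of Pgk1 and Eno1 are uncertain, since most of their sequence is shared with other genes and the Pgk1 count is not read as abundance. Aldoa overlapped with Pkm, and Eno1, Slc2a3 and Pfkp overlapped with each other, as did Pfkp with Slc2a1. The order depends on the length used. With the length of the main coding transcript in place of all merged exons, Pkm stood at 148 and Aldoa at 132, and Pfkp stood at 61.6, next to Hk1 at 61.3.

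Pgk1, phosphoglycerate kinase, had a count of only 46 to 72 per library, and near-identical sequences occur in other annotated genes. Their part in that low count was not tested. The transcripts of GENCODE M21 were cut into overlapping windows of 50 bases, and each window was looked up, on both strands, in the transcripts of every other gene. Of the windows of the main coding transcript, 68.0% for Pgk1, 72.2% for Eno1, 39.3% for Pkm, 16.6% for Ldha, 13.5% for Aldoa and 1.74% for Slc2a1 occurred in at least 1 other gene. Slc2a3, Hk1, Hk2 and Pfkp had none. A read of that length from such a window cannot be placed from its sequence alone. Within the coding sequence, all 1202 windows of Pgk1 and 1044 of 1253 windows of Eno1 were shared. A coding window of each of Pgk1, Eno1 and Pkm is printed to show such a shared stretch, and each is identical, base for base, in the genes named with it.
Pgk1 coding bases 602 to 651, found also in Gm5537 and Pgk1-rs7: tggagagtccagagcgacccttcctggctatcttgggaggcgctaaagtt
Eno1 coding bases 523 to 572, found also in Eno1b and Gm4735: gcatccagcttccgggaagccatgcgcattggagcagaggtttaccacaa
Pkm coding bases 930 to 979, found also in Gm6560: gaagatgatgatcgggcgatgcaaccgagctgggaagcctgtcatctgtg
Sequences are from the GENCODE M21 transcripts, 5′ to 3′, with bases counted from 1 at the A of the start codon.

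The second deposited table gives other levels for these genes. In the authors' deposited table, the mean level of Pgk1 was 1844, against a mean of 59.5 counts in the count table, a ratio of 31.0. Eno1 went the other way, with 0.171 in the authors' deposited table against 851 counts. Over the 9882 genes with a mean of at least 20 counts and a row in both tables, the ratio had a median of 0.986, and 5% of genes lay below 0.699 and 5% above 1.90. The authors' deposited table and the counts thus stood close for most genes but not for these.

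The ratio was set beside the share of windows found in other genes. Among the glycolytic genes with a mean of at least 20 counts, the 12 with under 2% shared windows had ratios of the authors' deposited mean to the count between 0.802 and 1.06, the 5 with 2% to 30% had 1.26 to 1.94, and, Eno1 aside, the 4 above 30% had 2.06 to 59.5. Gapdh, glyceraldehyde 3-phosphate dehydrogenase, held the highest ratio, with 55.8 counts against a deposited mean of 3324, and 90.4% of its windows were shared. Pgam1, phosphoglycerate mutase, had a ratio of 28.7. The minimum of 20 counts acts on the denominator of the ratio, and genes below it did not follow this order. Pgam2, the muscle form of that mutase, with no shared windows, had a mean of 0.333 counts against a deposited mean of 39.7, and Gapdhs, the sperm form of Gapdh, with 4.55% shared, had 0 counts against 34.8. This is a description over 22 genes. The counts of Pgk1, Gapdh and Pgam1 and the authors' deposited mean of Eno1 are not read here as the abundance of those transcripts. No source used here gives how each table treated reads with several matches.

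**Figure D2:**
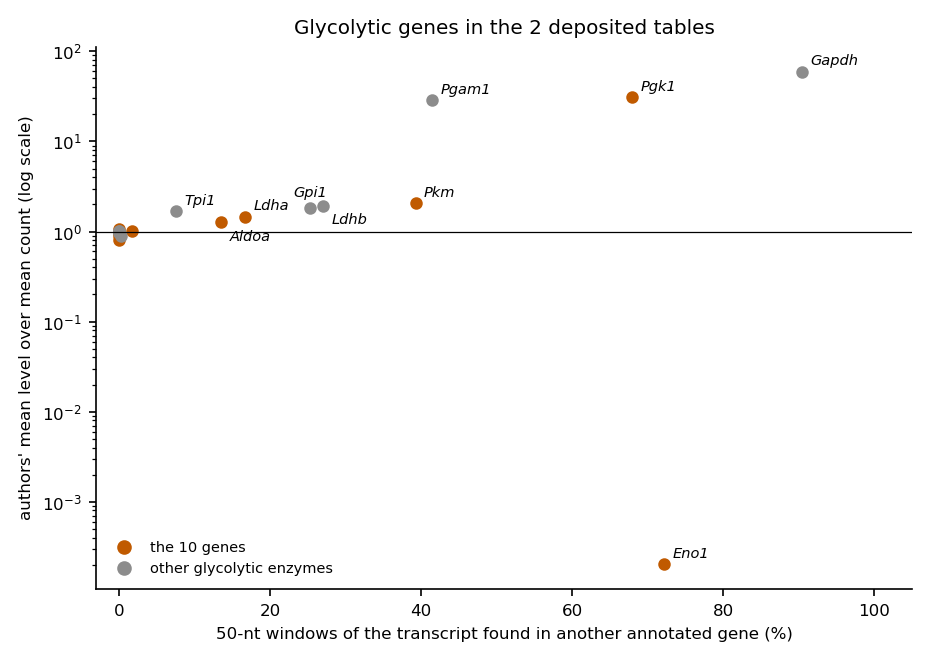
Ratio of the authors' deposited mean level to the mean count (log scale) against the percentage of 50-base windows of the main coding transcript found in another annotated gene, 1 point per glycolytic gene with a mean of at least 20 counts. Genes with almost no shared windows lie near 1, Pgk1, Pgam1 and Gapdh lie at 28.7 or above, and Eno1 lies far below 1.

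By label over all 6 libraries, none of the 10 genes was called by edgeR's quasi-likelihood test at a Benjamini-Hochberg adjusted p of 0.05. The background was 2 genes of 12158 tested, or 0.0165%, so that a count of 0 says little about these genes. At an unadjusted p under 0.05, 1 of the 10 genes and 944 of all tested genes passed, and DESeq2 called none of the 10, beside 0.0322% of all genes with an adjusted p. Leaving out sufficient replicate 3, the library labelled sufficient in which Trim28 was low, gave 3 calls, with Eno1 higher and Hk1 and Pkm lower in the deficient group, beside 807 of all 12336 tested genes or 6.54%. In CPM, Hk2 and Ldha were lower in every deficient library than in every sufficient library, and 12.8% of tested genes did not overlap between these groups.

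By Trim28 level, Eno1 and Pfkp were called higher in the low Trim28 libraries and none of the 10 was called lower. The median log2 fold change was -0.01 over the 10 genes and 0.00 over all tested genes. In CPM, Slc2a1, Pfkp and Eno1 were higher, and Hk1 lower, in every low than in every high Trim28 library, where 26.4% of tested genes did not overlap. For Hk1 this rests on 214.88 CPM in deficient replicate 2 (low) against 215.01 CPM in deficient replicate 3 (high). Its counting error was 2.17% at the lowest count. These CPM leave out the TMM factors of the fits, 0.998 for deficient replicate 2 and 1.011 for deficient replicate 3. In the 4 libraries where Trim28 and label agree, 5 of the 10 genes were called, Eno1 and Pfkp higher and Slc2a3, Hk1 and Pkm lower in the deficient libraries, beside a background of 17.4% of 12183 genes, 9.96% higher and 7.39% lower. By DESeq2, Eno1 alone of the 10 was called in those 4 libraries, and also alone by Trim28 level, where DESeq2 called 7.57% and 5.71% of all genes with an adjusted p.

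**Figure D3:**
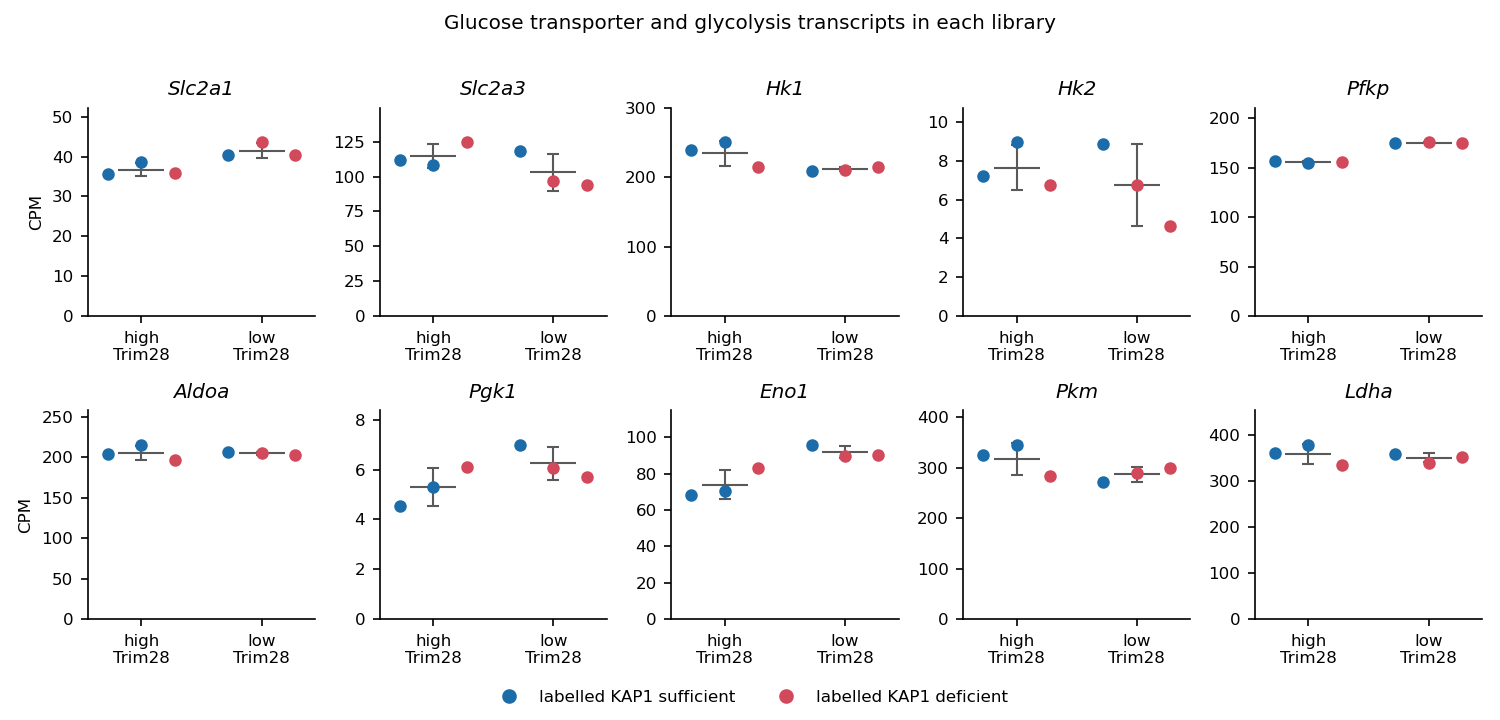
CPM of each of the 10 genes in each library (vertical axes from 0), with the 3 high Trim28 libraries on the left and the 3 low ones on the right of each panel, coloured by label, and the mean with the SD of each set of 3 as bars. Pfkp and Eno1 are higher in all 3 low Trim28 libraries, whereas Aldoa and Ldha overlap. For Hk1, the high Trim28 library deficient replicate 3 stands level with the low ones.

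Slc2a1 (chr4:119108711-119137983, plus strand, mm10), encoding GLUT1, the transporter that T cells raise on activation, stood at 35.7, 38.7 and 40.4 CPM in sufficient replicates 1 to 3 and at 43.5, 40.5 and 35.8 CPM in deficient replicates 1 to 3. The 3 low Trim28 libraries were the 3 highest, at 41.5 ± 1.80 CPM, where the high ones stood at 36.8 ± 1.69 CPM (SD, n = 3 each). The fitted log2 fold change by Trim28 level was 0.18 ± 0.08 (SE, adjusted p of 0.162 by edgeR), which did not pass the test, with a 95% interval of 0.02 to 0.35. By label it was 0.06, with an interval of -0.15 to 0.27.

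Slc2a3 (chr6:122727809-122801640, minus strand), encoding GLUT3, a transporter of high glucose affinity, did not follow Slc2a1. It stood at 112, 108 and 118 CPM in the sufficient and at 96.8, 93.7 and 124 CPM in the deficient libraries. The library labelled deficient replicate 3 was the highest of all and the other deficient libraries were the lowest. In the 4 libraries where Trim28 and label agree it fell by 0.20 ± 0.06 on the log2 scale (SE, adjusted p of 0.0349 by edgeR, 0.263 by DESeq2). By Trim28 level over 6 libraries the log2 fold change was -0.14, with a 95% interval of -0.33 to 0.04. The ratio of Slc2a1 to Slc2a3 in RPKM ran from 0.595 in deficient replicate 3 to 0.929 in deficient replicate 1, and it was not tested.

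Hk1 (chr10:62268855-62379908, minus strand), the mitochondria-bound hexokinase of most tissues, stood at 239, 250.3 and 209 CPM in the sufficient and at 210.0, 215 and 215 CPM in the deficient libraries. Sufficient replicates 1 and 2 stood apart, and the other 4 libraries lay between 209 and 215 CPM. In the 4 libraries where Trim28 and label agree Hk1 fell by 0.20 ± 0.05 on the log2 scale (SE, adjusted p of 0.0148 by edgeR, 0.0852 by DESeq2). By Trim28 level the log2 fold change was -0.14 ± 0.06 (adjusted p of 0.201 by edgeR). Without deficient replicate 3, a high Trim28 library at the level of the low ones, the same comparison called Hk1 lower, with a log2 fold change of -0.21 (adjusted p of 0.00328 by edgeR), where 22.2% of all tested genes were called.

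Hk2 (chr6:82725025-82774454, minus strand), the inducible hexokinase and a known HIF and Myc target, was the lowest of the 10 in RPKM. It stood at 7.23, 8.94 and 8.83 CPM in the sufficient and at 6.75, 4.62 and 6.73 CPM in the deficient libraries, which rest on 46 to 91 counts. The counting error alone was 14.7% at the lowest count. It had the largest log2 fold change of the 10 by label, -0.47 ± 0.19 (SE, edgeR unadjusted p = 0.0339, adjusted p = 0.632), and the groups did not overlap. By Trim28 level they overlapped, and the log2 fold change was -0.16, with a 95% interval of -0.62 to 0.29.

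Pfkp (chr13:6579768-6648777, minus strand), the platelet-type subunit of phosphofructokinase, the committed step of glycolysis, varied little within each Trim28 level. It stood at 157, 154 and 155 CPM in the high Trim28 libraries (sufficient 1, sufficient 2 and deficient 3) and at 175, 175 and 174 CPM in the low ones (sufficient 3, deficient 1 and deficient 2). Neither label group was uniform, since each held libraries of both levels. The rise was 13.3% (95% interval 4.88% to 22.3%), a log2 fold change of 0.18 ± 0.05 (SE, adjusted p of 0.0466 by edgeR). The call sits at the threshold. It was lost with upper-quartile scaling, by DESeq2 (adjusted p = 0.0928), and without any 1 of 5 libraries, where edgeR's adjusted p ran up to 0.174. Without deficient replicate 3 it held, and the log2 fold change stayed between 0.17 and 0.19 over all 6 omissions.

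Aldoa (chr7:126795234-126800751, minus strand), the aldolase that splits fructose 1,6-bisphosphate, had the smallest fitted log2 fold change of the 10 in all 3 comparisons. It stood at 204, 215 and 207 CPM in the sufficient and at 205, 203 and 197 CPM in the deficient libraries, and the groups overlapped under both groupings. The log2 fold change by Trim28 level was 0.01, with a 95% interval of -0.11 to 0.13. By label it was -0.05, with an interval of -0.17 to 0.07.

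Pgk1 (chrX:106187100-106203699, plus strand), which makes the first ATP of the pathway, stood at 4.55, 5.30 and 6.99 CPM in the sufficient and at 6.05, 5.73 and 6.09 CPM in the deficient libraries. The log2 fold change by Trim28 level was 0.24, with a 95% interval of -0.13 to 0.61, and by label 0.08, with an interval of -0.35 to 0.52. They rest on the 46 to 72 counts that stand far below its mean in the authors' deposited table. In the authors' deposited table its log2 fold change was -0.02 ± 0.07 (SE, adjusted p = 0.939), where positive means higher in sufficient cells.

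Eno1 (chr4:150236721-150248879, plus strand), the enolase of most tissues, had the largest change with Trim28 level among the 10. It stood at 68.4, 70.2 and 83.0 CPM in the high Trim28 libraries (sufficient 1, sufficient 2 and deficient 3) and at 95.6, 89.7 and 90.3 CPM in the low ones (sufficient 3, deficient 1 and deficient 2). Deficient replicate 3 lay between the other high libraries and the low ones, and sufficient replicate 3 was the highest of all. The rise was 25.1% (95% interval 12.6% to 39.1%), a log2 fold change of 0.32 ± 0.07 (SE, adjusted p of 0.0112 by edgeR). It was 0.38 ± 0.07 in the 4 libraries where Trim28 and label agree (adjusted p of 0.000975 by edgeR), and 0.37 to 0.39 without each of them in turn. By Trim28 level the call was lost without any 1 of the 3 sufficient libraries, at edgeR adjusted p values of 0.0577 to 0.0746, with log2 fold changes of 0.28 to 0.30.

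Most windows of Eno1 are shared with copies, some of which held counts of their own. Gm4735 held 136 to 164 counts per library and Eno1b held 6 to 15, against 691 to 985 for Eno1. With the counts of such copies added to each gene, an alternative chosen after seeing the data, Eno1 rose by 0.30 on the log2 scale by Trim28 level (adjusted p of 0.0108 by edgeR). The same genes were called among the 10 in all 3 comparisons. Since the sum changed the counts of Aldoa, Eno1 and Ldha alone, it could not check the calls of the other genes. The authors' deposited table gives no adjusted p for Eno1, so that its rise has no counterpart there. Eno3, which has no shared windows, stood at 66.0, 48.1 and 51.5 CPM in the sufficient and 75.2, 54.3 and 45.8 CPM in the deficient libraries, with a log2 fold change by Trim28 level of 0.19 and a 95% interval of -0.35 to 0.72.

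Pkm (chr9:59656368-59679375, plus strand), pyruvate kinase, stood at 325, 345 and 271 CPM in the sufficient and at 289, 300.1 and 283 CPM in the deficient libraries. As for Hk1, sufficient replicates 1 and 2 were the highest and sufficient replicate 3 was the lowest of all. In the 4 libraries where Trim28 and label agree it fell by 0.18 ± 0.05 on the log2 scale (SE, adjusted p of 0.0272 by edgeR, 0.10 by DESeq2). By Trim28 level the log2 fold change was -0.14 ± 0.07 (adjusted p of 0.287 by edgeR), and it was -0.22 without deficient replicate 3 (adjusted p of 0.00365 by edgeR). Counts per gene do not separate the M1 and M2 splice forms.

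Ldha (chr7:46841475-46855627, plus strand), the lactate dehydrogenase subunit that turns pyruvate into lactate, had the highest CPM and RPKM of the 10. It stood at 361, 378 and 359 CPM in the sufficient and at 340.0, 353 and 335 CPM in the deficient libraries. All 3 deficient libraries lay below all 3 sufficient ones, but the log2 fold change by label was -0.10 ± 0.05 (SE, adjusted p of 0.654 by edgeR). By Trim28 level it was -0.02, with a 95% interval of -0.15 to 0.11.

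**Figure D4:**
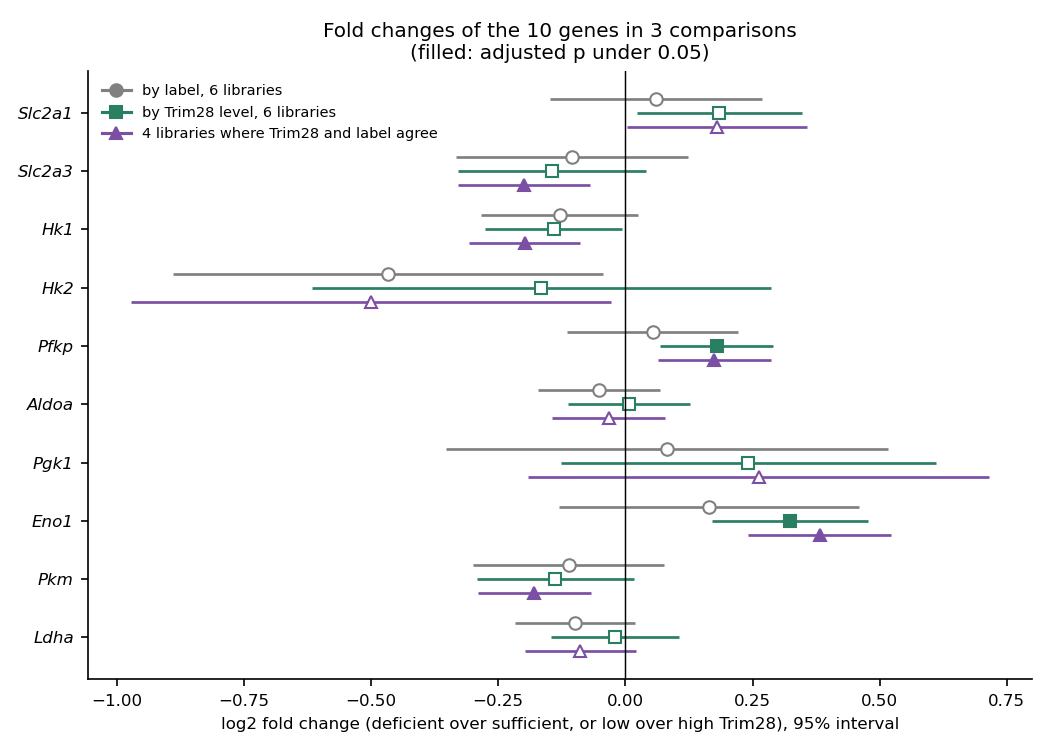
Log2 fold change with its 95% interval for each of the 10 genes, by label (grey), by Trim28 level (green) and in the 4 libraries where Trim28 and label agree (purple), filled where the adjusted p is under 0.05. No grey point is filled, Pfkp and Eno1 are filled in green and purple, and Slc2a3, Hk1 and Pkm are filled in purple only.

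None of the 10 genes had an adjusted p under 0.05 in the authors' deposited table, beside 829 of its 12071 genes with an adjusted p, or 6.87%. Eno1, at a mean of 0.171, had no adjusted p there and so could not be called. There a positive log2 fold change means higher in sufficient cells. Pfkp was given at -0.12 ± 0.06 (SE, adjusted p = 0.312) and Hk1 at 0.13 ± 0.06 (SE, adjusted p = 0.286) in the authors' deposited table. The authors' deposited table gave Trim28 at 3.11 on the log2 scale, where the label comparison of the counts gave a log2 fold change of -0.90, deficient over sufficient. No source used here gives the libraries behind that table.

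The rest of the pathway was read from 10 lists with 140 genes, most of which were tested. By Trim28 level 5 of the tested genes rose and 2 fell, and their median log2 fold change was 0.01, against 0.00 over all tested genes. By label none was called by edgeR or DESeq2, and 6 of them had an unadjusted p under 0.05 by edgeR. In the 4 libraries where Trim28 and label agree 7 rose and 6 fell. These counts are near or below the share of all tested genes called. DESeq2 called 3 higher and 1 lower by Trim28 level, namely Adpgk, Gfpt1 and Mxd1 higher and Mxd4 lower. Of the lists, the transporters other than GLUT1 and GLUT3, the fructose bisphosphate switch, pyruvate entry into mitochondria and the pentose phosphate pathway held no call by Trim28 level with either tool. By edgeR 0, 0, 2 and 0 of their genes, in that order, had an unadjusted p under 0.05.

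**Figure D5:**
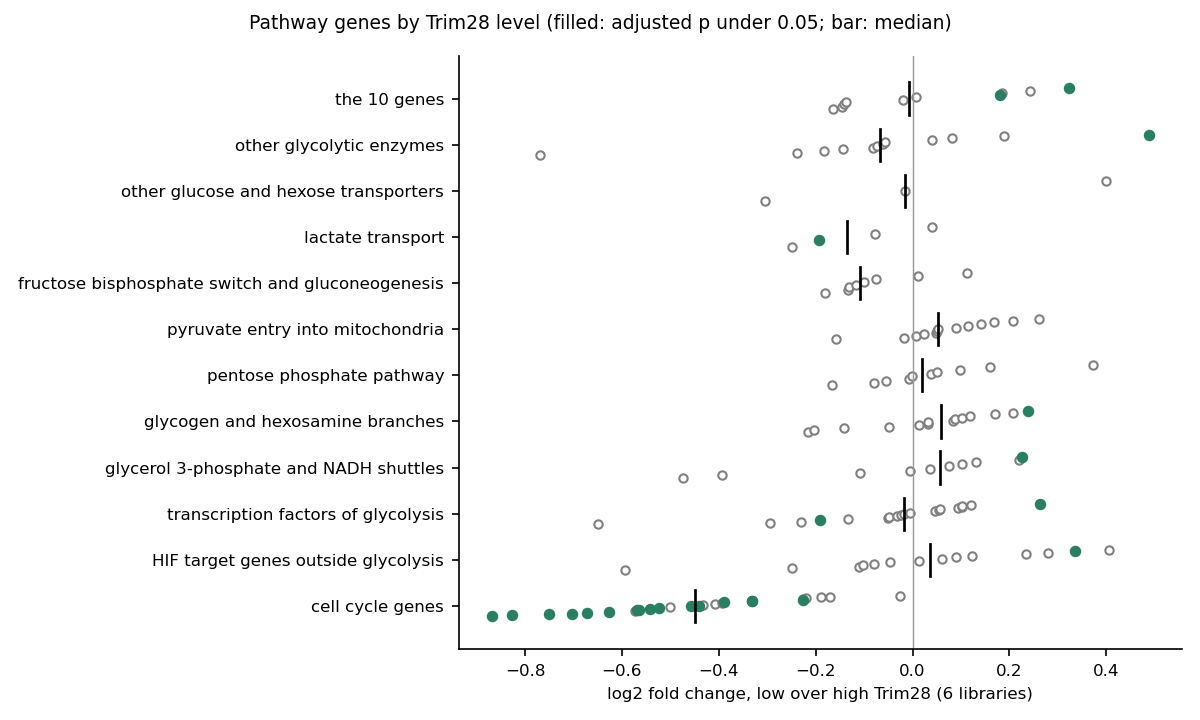
Log2 fold change by Trim28 level for each tested gene of the 10 genes, the 10 pathway lists and the cell cycle list, with the median of each as a bar and filled points where the adjusted p is under 0.05. The pathway medians lie close to 0 with 1 or 2 filled points at most in a list, whereas 16 of 26 cell cycle genes are filled and lie below 0.

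Among the other 12 tested glycolytic enzymes, Adpgk alone was called by Trim28 level. Adpgk encodes a glucokinase that uses ADP in place of ATP. It stood at 112, 104 and 112 CPM in the high Trim28 libraries (sufficient 1, sufficient 2 and deficient 3) and at 142, 161 and 153 CPM in the low ones (sufficient 3, deficient 1 and deficient 2), with no overlap. Its log2 fold change was 0.49 ± 0.06 (SE, adjusted p of 0.000132 by edgeR), larger than that of any of the 10 genes. In the authors' deposited table Adpgk was at -0.45 ± 0.07 (adjusted p = 1.75e-08), that is lower in sufficient cells. None of its windows was shared with another gene.

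Single genes of the side branches changed by Trim28 level. Gfpt1, which sends fructose 6-phosphate into hexosamine synthesis, rose by 0.24 ± 0.06 on the log2 scale (SE, adjusted p of 0.0217 by edgeR), as 1 of 14 tested genes of the glycogen and hexosamine list. Gpd1l, of the glycerol 3-phosphate dehydrogenase family, rose by 0.23 ± 0.06 (adjusted p of 0.0260 by edgeR), as 1 of 10 shuttle genes. Emb, encoding embigin, a chaperone of lactate transporters, fell by 0.19 ± 0.05 (adjusted p of 0.0362 by edgeR), as 1 of 4 lactate transport genes. Ndrg1, a HIF target outside glycolysis, rose by 0.33 ± 0.09 (adjusted p of 0.0394 by edgeR), as 1 of 14. DESeq2 did not call Gpd1l, Emb or Ndrg1. The lists without a call are described by their most abundant genes. Slc2a9, Pfkfb3, Pdha1 and Tkt had log2 fold changes of -0.02, -0.10, 0.02 and -0.08, and Slc2a8, Pfkfb2, Pdk1 and Taldo1 had -0.30, 0.11, 0.09 and 0.00, none past the threshold.

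Of 19 tested transcription factor genes of the pathway, 1 rose and 1 fell by Trim28 level. Mxd1, a partner of MAX that opposes Myc, rose by 0.26 ± 0.07 on the log2 scale (SE, adjusted p of 0.0451 by edgeR), and Mxd4, of the same family, fell by 0.19 ± 0.05 (adjusted p of 0.0444 by edgeR). Myc stood at 184, 228 and 170 CPM in the high and at 164, 159 and 170 CPM in the low Trim28 libraries, with sufficient replicate 2 well above the rest. Its log2 fold change by Trim28 level was -0.23 ± 0.09 (adjusted p of 0.168 by edgeR), and in the 4 libraries where Trim28 and label agree it fell by 0.32 ± 0.09 (adjusted p of 0.0358 by edgeR). Foxp3 stood at 747, 697 and 612 CPM in the high and at 621, 614 and 596 CPM in the low Trim28 libraries, a log2 fold change of -0.16 (adjusted p of 0.193 by edgeR). Foxp3 fell by 0.25 ± 0.05 on the log2 scale in the 4 libraries where Trim28 and label agree (adjusted p of 0.00509 by edgeR), and of the other 6 Treg markers Cd4 fell and Ikzf2 rose. Mki67, a marker of cycling cells, stood at 174, 210.0 and 158 CPM in the high and at 107, 109 and 115 CPM in the low Trim28 libraries.

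The genes whose level most resembled the summed level of the 10 over the 6 libraries were Rusc1, Ddx18, Arid4a, Arfip2 and Kat5, with Pearson's r of log2 CPM from 0.983 to 0.993 for these 5. Of 8834 genes compared, 131 or 1.48% had r above 0.9. With 6 libraries that share their totals this is a description only.

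Promoter sequence was compared as a feature that did not enter the choice of the genes. RefSeq (GRCm38.p6) gave start sites for 9 of the 10 genes, Slc2a3 being the exception, and 16 windows of 250 bases upstream of a start. The core of the HIF response element, ACGTG or GCGTG on either strand, occurred in 13 of the 16 windows, against 38.6% of 32851 windows of the same length over all genes. Some windows of Aldoa and of Eno1 overlap and share sites, and with overlapping windows joined 11 of 14 held a match. Each of the 9 genes had a match in at least 1 window, against 41.5% of 27025 genes. The 9 genes had more windows per gene than all genes did, which gives more chances of a match. CACGTG, the E-box bound by Myc and USF, which contains ACGTG on both strands, occurred in 1 of the 16, at Ldha, against 6.02%. The median GC content was 64.6% in the windows of the 9 genes and 52.4% over all, and both core motifs are GC-rich. A match is a description of the letters and not a site.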

How the data were processed

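Per the labels' protocols, RNA of sorted Treg was made into TruSeq RNA v2 libraries. The submitters' processing notes name mm10, DESeq2, HTSeq 0.7.2 and TopHat2 2.1.1, without roles. Strand use and the handling of reads with several matches are given in none of the sources used here, so overlapping and antisense genes cannot be told apart. The authors deposited unnormalized whole-number counts for each Ensembl gene. The other deposited table gives, as named per the file headers, each gene's mean (a signal of normalized coverage), a log2 fold change with its SE, a test score, and a p-value with adjusted p and q-value.

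Symbols matched 32919 of 37991 identifiers. Counts were tested over all genes with edgeR 4.0.16 in R 4.3.3 (quasi-likelihood, robust, TMM factors, filterByExpr, Benjamini-Hochberg at 0.05) and the fits were tested on simulated data. SEs and 95% intervals come from the fold change and F value. CPM used library totals, and 3 counts correspond to 0.273 to 0.301 CPM; counting errors cover counting only. Alternatives were RLE and upper-quartile factors, no filter, DESeq2 1.42.0, limma-voom 3.58.1, a replicate block, omission of libraries and summed near-copies (at least 10 shared windows). The named genes were the 10, Trim28, Foxp3, Mki67 and Myc, up to 3 called genes by Trim28 level per pathway list or else the 2 most abundant, and the 5 most alike in level. Gapdh, Pgam1, Eno3 and the copies were named after their values were seen. The members and lists were chosen with earlier results of these data known. The 2 libraries at odds with their Trim28 level were kept under their labels. The marker lists for CD8 T cells, natural killer cells, myeloid cells, dendritic cells and platelets summed to at most 14.8, 18.2, 8.14, 4.37 and 4.56 CPM.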

Additional observations from a re-analysis of the deposited data

How the results depend on the processing

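Among the 10 genes, Trim28, Foxp3, Mki67, Myc and the pathway genes named by rule, no called direction reversed under any alternative. Trim28 was checked by label only, and other called genes were not checked for this. By label, the number of all tested genes called was 6 by DESeq2, 1 by limma-voom, 0 with the replicate block, 1 to 807 without 1 library and 2114 without both libraries in which Trim28 goes against the label, while 0 to 3 and 5 of the 10 genes were called in the last 2 settings. The calls of the 10 genes by label arose only on leaving out sufficient replicate 3, alone or with deficient replicate 3. By Trim28 level, 1676 genes were called without a filter and 556 to 2737 without 1 library, the highest without deficient replicate 3. Of the 10 genes, 1 (Eno1) was called with upper-quartile factors, beside 1051 of all tested genes. It was also the 1 called by DESeq2, beside 792, and with the replicate block, beside 1117, where Pfkp had an edgeR adjusted p of 0.0598. Without 1 library 0 to 4 of the 10 were called, with 0 on leaving out any sufficient library and 4 (Eno1, Pfkp, Hk1, Pkm) on leaving out deficient replicate 3. In the 4 libraries where Trim28 and label agree, DESeq2 called 935 genes and 1 of the 10. A fit without 1 of these libraries leaves a lone library in a group, which is assumed to vary like the others. Only log2 fold changes are therefore given for such fits, and they ran from 0.37 to 0.39 for Eno1 and from -0.80 to -0.25 for Hk2. Same-numbered libraries did not deviate together by Trim28 level (correlations of -0.04 to 0.02), so the numbers were not taken as pairs. By label the correlations were -0.61 to -0.29, but both libraries numbered 3 go against their label in Trim28, so these values cannot show pairing. In the 4 libraries where Trim28 and label agree both values were -0.02, equal because each group holds 2 libraries. The block moved no other call of the 10 genes. The cause of these changes was not tested. Depth limits Hk2 and Pgk1 most, with a counting error of 14.7% at 46 counts.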
